A study of Mus musculus with 8 samples.

Results

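The genes described here build and use the manchette and the joint between the sperm head and the tail. They are the 10 genes Spata6, Sun3, Sun5, Spag4, Pmfbp1, Spem1, Hook1, Rimbp3, Cntln and Cep131, chosen by symbol, and each symbol matched 1 row of the table of 56748 Ensembl genes. RNA from whole adult testis of mice was sequenced in bulk, with 4 Ssty2 knockout libraries (genotype Ssty2-/-) and 4 wild-type libraries (WT). Ssty2 is a gene of the long arm of the mouse Y chromosome, present in many copies and transcribed in spermatids, and the submitters' title speaks of a deletion of its repeats. The comparison asks what differs between testis with and without these repeats. The sources used here do not give the strain, the exact age or the way the deletion was made. Nor do the labels say that libraries of a group come from separate animals, so the p-values below rest on library-to-library spread that may be technical.

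The manchette is a transient skirt of microtubules that forms behind the acrosome of the elongating spermatid, helps to shape the nucleus and carries cargo toward the growing tail. LINC complexes, made of SUN proteins of the inner and KASH proteins of the outer nuclear membrane, tie the nucleus to such microtubules. At the caudal pole of the nucleus the head-tail coupling apparatus then fastens the flagellum, and its loss is known to give sperm whose heads and tails come apart.

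Of the 10 genes, 8 were higher in knockout testis and none was lower (edgeR's quasi-likelihood test, p under 0.05 after Benjamini-Hochberg adjustment over all 21952 tested genes). The rises were between 1.17-fold for Hook1 and 1.58-fold for Spem1 and Sun5. Cntln and Cep131 did not pass. Over all tested genes 26.2% were called higher and 27.4% lower, 53.5% in all. With libraries scaled by their totals 7 members were higher and none lower, beside 17.5% and 37.6% of all tested genes. With the round spermatid markers described below as the scale, 2 were higher and 4 lower, beside 5.58% and 63.4%. The median log2 fold change of the 10 was 0.43, beside -0.01 over all tested genes. In the same 8 genes every knockout library lay above every wild-type library, which held for 22.7% of all tested genes, while 24.0% lay wholly below and 46.7% were apart in either direction. In bulk tissue, more cells of a type and more RNA per cell cannot be told apart, and here markers of several cell types moved as well. All 20 round spermatid markers rose (median log2 fold change 0.48), and their summed level ran from 3349 to 3768 CPM (counts scaled to library size) in wild type and from 5017 to 5153 CPM in knockout. The marker lists were chosen with earlier results of these data known. In particular, 4 of the 20 (Izumo1, Gsg1, Catsper4 and Tex21) were already known to rise, so their rise is no separate result.

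Depth was from 18036708 to 24415587 counts per library, and every member had at least 936 counts in each library. Ssty2 had 56, 78, 83 and 45 counts in the wild-type libraries and 0 in each knockout library, where a count of 0 allows up to 3 counts, worth between 0.141 and 0.175 CPM. This upper limit covers counting error only. The counts are those of 1 Ensembl gene, while Ssty2 has many copies. The handling of reads that map to several places is not given, so the 0 does not speak for every copy. Of the 16 elongating spermatid markers 15 rose and none fell, with sums of 16124 to 19675 CPM in wild type and 24992 to 28396 CPM in knockout. Leydig cell markers went the other way (14 of 14 lower, sums of 2790 to 3051 against 1478 to 1668 CPM), as did Sertoli cell (18 of 20 lower, 2440 to 2774 against 1617 to 1895 CPM), spermatogonial (14 of 17 lower and 1 higher, 489 to 607 against 322 to 348 CPM) and macrophage markers (8 of 11 lower, 134 to 155 against 89.2 to 112 CPM). Peritubular myoid markers were lower in 8 of 10 genes and higher in 1, with overlapping sums (349 to 387 and 358 to 400 CPM). Without the 1 that rose, Actg2, a sum chosen after seeing the data, they were 180 to 200 CPM in wild type and 108 to 136 CPM in knockout. Spermatocyte markers were higher in 3 and lower in 7 of 17 (median log2 fold change -0.13), also with overlapping sums (3738 to 4017 and 3528 to 4099 CPM). The largest part of these sums was Ybx3, which was not called (1324 ± 52.7 CPM in wild type and 1483 ± 320 CPM in knockout, mean ± SD). Over all tested genes 26.2% were called higher and 27.4% lower. No marker on any of these lists was at 0 in all libraries. The part of these shifts in the results below was not tested.

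Genes that move together invite a look at shared motifs. Upstream sequence is shown only where the window of a member held a match to a motif searched below. Of these members Spata6, Spem1 and Spag4 rose and Cep131 did not pass. The windows of Sun3, Sun5, Hook1 and Cntln held no match and are not shown, although Sun3, Sun5 and Hook1 also rose. RefSeq windows of 250 bases before the start (build GRCm38.p6) were found for 8 members, and 4 motifs were searched on both strands: the cAMP response element TGACGTCA, its half-site TGACG (which lies within the full element), the RFX half-site GTTGCC and the SOX core ACAAT. Pmfbp1 and Rimbp3, which also rose, had no window and were not searched. Capitals mark a match, read on either strand. The first 2 stretches are chr4:111719760-111719950 (plus strand) and chr11:69822181-69822415 (minus strand), trimmed to bases outside annotated exons, and the last 2 are 30 bases each around element matches, which lie past the point where an annotated exon or the gene begins, at chr2:156065173-156065202 (plus strand) and chr11:120086828-120086857 (minus strand).
Spata6: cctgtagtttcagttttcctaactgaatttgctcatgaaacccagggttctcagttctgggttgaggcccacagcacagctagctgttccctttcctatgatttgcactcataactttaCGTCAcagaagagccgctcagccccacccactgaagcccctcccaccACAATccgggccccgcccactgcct
Spem1: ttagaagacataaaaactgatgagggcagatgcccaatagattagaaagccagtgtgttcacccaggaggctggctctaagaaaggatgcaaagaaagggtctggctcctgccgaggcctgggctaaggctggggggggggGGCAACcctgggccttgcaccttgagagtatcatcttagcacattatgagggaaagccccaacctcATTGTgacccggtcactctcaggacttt
Spag4: cagTGACGTCAcgggcgctctgTGACGcgg
Cep131: ctgcaaaggcgggccggcgTGACGgacagc
The full element was found in the window of 1 member, Spag4, 37 bases before the start, and in 1.6% of the 27025 windows searched. These are 1 per gene, and the windows of 1 chromosome, which holds no member, were left out. The half-site was found in 3 of the 8 windows, those of Spag4, Spata6 and Cep131, and in 17.8% of the windows searched. The RFX half-site was found in 1 window (Spem1, against 10.5% of those searched) and the SOX core in 2 (Spata6 and Spem1, against 28.2%). The half-site was thus held by 2 members that rose and by 1 that did not pass. These matches are descriptions of letters and do not show a bound factor.

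Levels are CPM scaled by TMM (trimmed mean of M-values), given for libraries 1 to 4 of each group in order. Spag4, also called Sun4, encodes a SUN protein of the spermatid nuclear envelope that faces the manchette. Its levels were 237, 185, 207 and 209 CPM in wild type and 335, 291, 300 and 290 CPM in knockout. The groups did not overlap, and replicate 1 was the highest library in each. Spag4 rose from 209 ± 21.3 to 304 ± 21.5 CPM (mean ± SD, n = 4 per group). Its log2 fold change was 0.54 ± 0.0702 (SE), with an edgeR adjusted p of 1.05e-05. Sun3 encodes a second SUN protein of this membrane domain. It measured 76.9, 77.7, 92 and 82.6 CPM in wild type and 105, 110, 112 and 109 CPM in knockout, again without overlap. The log2 rise of Sun3 was 0.41 with an SE of 0.0627 (adjusted p = 5.36e-05). Its exons overlap those of Gm11992 on the opposite strand over 123 bases, or 9.47% of their length, and Gm11992 itself had a log2 fold change of 0.35 (adjusted p = 0.00067). The sources used here do not say how strand was used in the counting, so reads in that overlap cannot be told apart.

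Sun5 encodes the SUN protein that sits at the coupling apparatus itself. Its levels were 71.4, 60.9, 74 and 71.2 CPM in wild type and 110, 103, 113 and 111 CPM in knockout. All knockout libraries lay close together and above the highest wild-type library. Sun5 rose from 69.4 ± 5.77 to 109 ± 4.25 CPM. The log2 difference of Sun5 was 0.66 with an SE of 0.065 (adjusted p = 6.49e-07), and it stood at percentile 89.3 of all tested genes. Sun1 and Sun2, the widely expressed SUN genes, were at 126 ± 6.1 and 46.6 ± 3.77 CPM in wild type. Sun1 had a log2 fold change of -0.01 (adjusted p = 0.94), and Sun2 fell by 0.36 (adjusted p = 0.00132).

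Pmfbp1 encodes a protein that works with SUN5 at the coupling apparatus. It measured 521, 483, 498 and 539 CPM in wild type and 723, 772, 783 and 772 CPM in knockout. The groups stood far apart relative to their spread, and Pmfbp1 had the smallest p of the 10 genes (log2 fold change 0.58 ± 0.0509 SE, adjusted p = 1.95e-07). The 3 named genes whose log2 CPM ran closest to it over the 8 libraries, after centring each gene, were Fhad1, Ttc39d and Wdr62, at root-mean-square distances of 0.0311, 0.0361 and 0.0361. Their log2 fold changes were 0.57, 0.62 and 0.57, close to that of Pmfbp1 by the way the genes were chosen. Among the other members Sun5 was nearest (0.0853) and Cntln farthest (0.306).

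Spata6 is needed to form the connecting piece, the segmented neck at the base of the head. Its levels were 879, 809, 849 and 840 CPM in wild type and 1066, 1106, 1029 and 1076 CPM in knockout. The groups did not overlap and the spread was small, with coefficients of variation of 3.43% and 2.98%. Spata6 rose by 26.6%, or 0.34 in log2 with an SE of 0.0476 (adjusted p = 2.09e-05). Spata6l, a gene related in sequence, rose by 0.55 (adjusted p = 3.26e-07). Cntln encodes centlein, a centrosomal protein that bridges SUN5 and PMFBP1. It measured 52.6, 63.9, 55 and 54.9 CPM in wild type and 50.2, 62.3, 59.3 and 58 CPM in knockout. The groups overlapped, and the log2 fold change was 0.02 (95% interval -0.14 to 0.19, adjusted p = 0.835). That interval lies below the log2 fold changes of Sun5 and Pmfbp1, its partners. The difference between these genes was not tested.

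**Figure D1:**
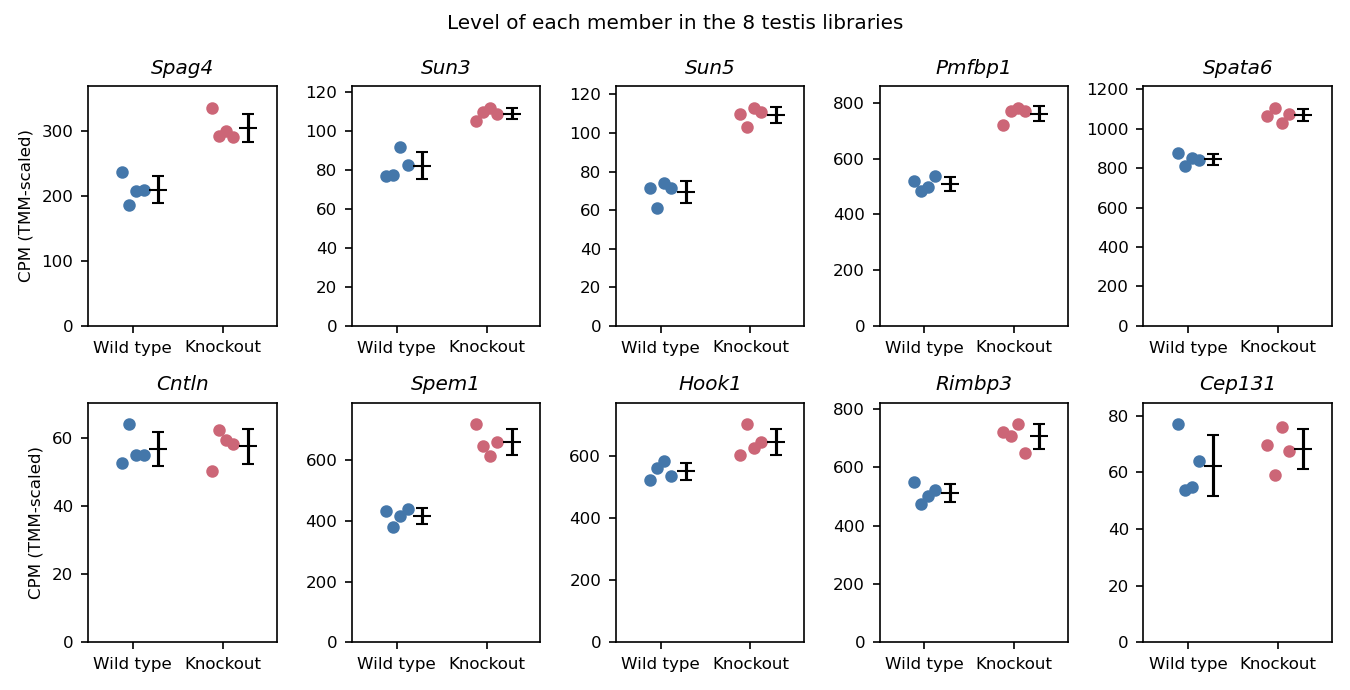
Level of each of the 10 genes in TMM-scaled CPM (vertical axes, each from 0) in the 4 wild-type (blue) and 4 knockout (red) libraries, with the group mean and SD in black. The groups do not overlap in 8 panels and overlap for Cntln and Cep131.

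Of the manchette genes, Spem1 encodes a protein needed for shedding the spermatid's cytoplasm and for a straight head. Its levels were 432, 379, 416 and 439 CPM in wild type and 717, 646, 612 and 658 CPM in knockout. Every knockout library exceeded the highest wild-type library by a wide margin. Spem1 rose from 417 ± 26.7 to 658 ± 43.6 CPM, which is 0.66 in log2 with an SE of 0.0596 (adjusted p = 2.54e-07). Spem2, a related gene, rose from 332 ± 28.6 to 610 ± 44 CPM, a log2 rise of 0.88 (adjusted p = 3.68e-08).

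Rimbp3 encodes a manchette protein that binds HOOK1. It measured 550, 474, 503 and 523 CPM in wild type and 721, 708, 748 and 648 CPM in knockout. The groups did not overlap, although knockout replicate 4 was lower than the other 3. In log2 Rimbp3 rose by 0.46 with an SE of 0.0579 (adjusted p = 7.09e-06). Its relatives Rimbp2 and Tspoap1 were scarce in testis (3.22 ± 0.421 and 9.89 ± 0.711 CPM in wild type) and did not pass (adjusted p = 0.453 and 0.121). Hook1 encodes a microtubule-binding adaptor whose loss gives abnormally shaped sperm heads in the azh mouse. Its levels were 523, 561, 583 and 535 CPM in wild type and 604, 702, 626 and 644 CPM in knockout. The gap between the groups was narrow, from 583 to 604 CPM. Hook1 rose by 16.9%, or 0.23 in log2 with an SE of 0.056 (adjusted p = 0.00293). When libraries were scaled by their totals its log2 fold change was 0.08 and the call ended (adjusted p = 0.209). Hook2 had a log2 fold change of 0.09 (adjusted p = 0.192), and Hook3 fell by 0.36 (adjusted p = 0.00456).

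Cep131, also called Azi1, encodes a protein of centriolar satellites that is needed for the sperm flagellum. It measured 76.9, 53.8, 54.8 and 64 CPM in wild type and 69.7, 58.9, 76 and 67.6 CPM in knockout. The groups overlapped, and wild-type replicate 1 was the highest of all 8 libraries. The log2 fold change was 0.13 (95% interval -0.09 to 0.34, adjusted p = 0.306). Without wild-type replicate 1 it was 0.23 and passed (adjusted p = 0.0344). Cep131 also had the widest spread of the 10 genes, with coefficients of variation of 17.2% in wild type and 10.4% in knockout.

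**Figure D2:**
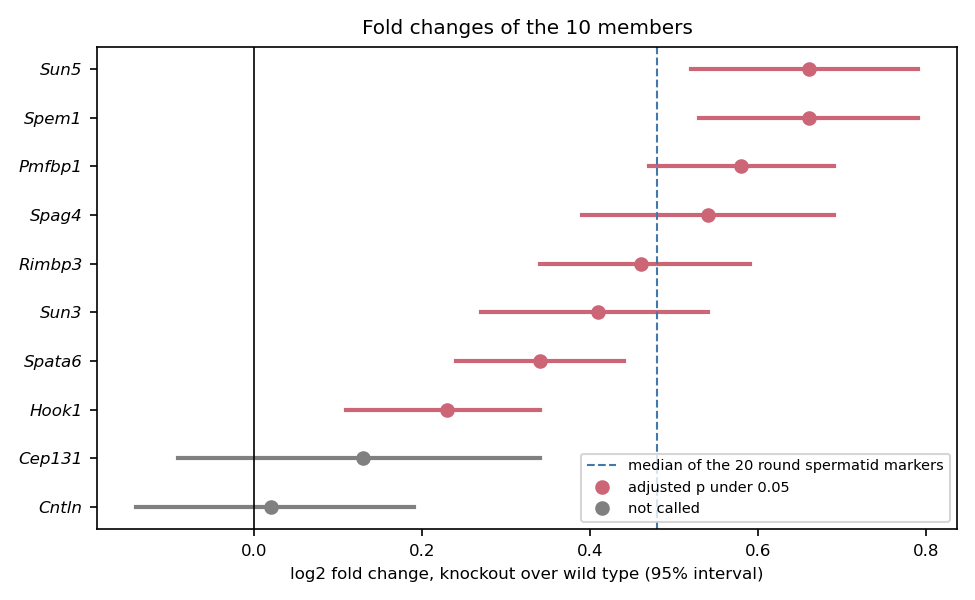
Log2 fold change (horizontal axis, knockout over wild type) of each gene with its 95% interval, called genes in red and others in grey, and the median of the 20 round spermatid markers (0.48) as a dashed line. Sun5 and Spem1 lie above that median with their whole interval, and Spata6, Hook1, Cep131 and Cntln lie below it. The median of the elongating spermatid markers (0.55, not drawn) lies within the intervals of Sun5 and Spem1.

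Per kilobase of exon, the order of the levels in wild type was Spem1 (400 ± 25.6 CPM per kb), Spata6 (150 ± 5.15), Pmfbp1 (142 ± 6.91), Rimbp3 (95.3 ± 5.95), Hook1 (66.2 ± 3.22), Sun3 (63.3 ± 5.34), Sun5 (56.3 ± 4.68), Spag4 (43.3 ± 4.4), Cep131 (16.3 ± 2.8) and Cntln (7.97 ± 0.706). The libraries of Spata6 and Pmfbp1, of Hook1 and Sun3, and of Sun3 and Sun5 overlapped, and the other neighbours in this order did not. The 2 genes that did not pass were the lowest per length. In knockout, Pmfbp1 (212 ± 7.42 CPM per kb) was above Spata6 (190 ± 5.67). Exon lengths join the exons of all transcripts of a gene in GENCODE vM21 and may differ from the annotation the authors used. The order rests on these lengths, which were 4831 bases for Spag4 beside 1299 for Sun3 and 1232 for Sun5. Which transcripts are made in testis was not tested.

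The members were next set against the round spermatid markers. The elongating spermatid markers, whose median log2 fold change was higher (0.55, beside 0.48), were not used as a scale. Scaled by the summed counts of the 20 round spermatid markers in place of TMM, edgeR called 2 members higher, Sun5 (log2 fold change 0.17) and Spem1 (0.18), and 4 lower, Spata6 (-0.14, adjusted p = 0.0182), Hook1 (-0.26, adjusted p = 0.00158), Cep131 (-0.36, adjusted p = 0.00262) and Cntln (-0.47, adjusted p = 0.000229). Sun3, Spag4, Pmfbp1 and Rimbp3 lay between -0.08 and 0.10 and did not pass. Of all tested genes, 5.58% were called higher and 63.4% lower with this scaling. Of the 16 elongating spermatid markers, 4 were called higher and 1 lower (median 0.07). The median of all tested genes moved to -0.49 with this scaling (and to -0.15 with library totals). The median of the members was 0.45 above it, beside 0.44 with TMM. A change of scaling shifts all genes nearly alike, so this gap could hardly change and is no separate result. Of the 20 markers, 4 (Izumo1, Gsg1, Catsper4 and Tex21) were known to rise from an earlier analysis of these data. Without them, an alternative chosen after seeing the data, Pmfbp1 was also called higher (0.19, adjusted p = 0.00391), and Spata6 was no longer lower (-0.05, adjusted p = 0.455), beside 7.52% of all genes higher and 55.6% lower. Wild-type replicate 2 had a marker sum below the other 3 wild-type libraries, and without it, also chosen after seeing the data, the same 2 members were called higher and the same 4 lower, beside 5.31% and 59.8% of all genes. With 1 ratio per library, the ratios of 2 members lay wholly higher in knockout (Sun5 and Spem1) and those of 3 wholly lower (Spata6, Hook1 and Cntln), beside 4.45% and 57.6% of all tested genes. Each of the 5 had an exact permutation p = 0.0286, two-sided, the smallest that 4 against 4 can give, and 0.0571 after Benjamini-Hochberg adjustment over the 10, so none passed by that test.

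**Figure D3:**
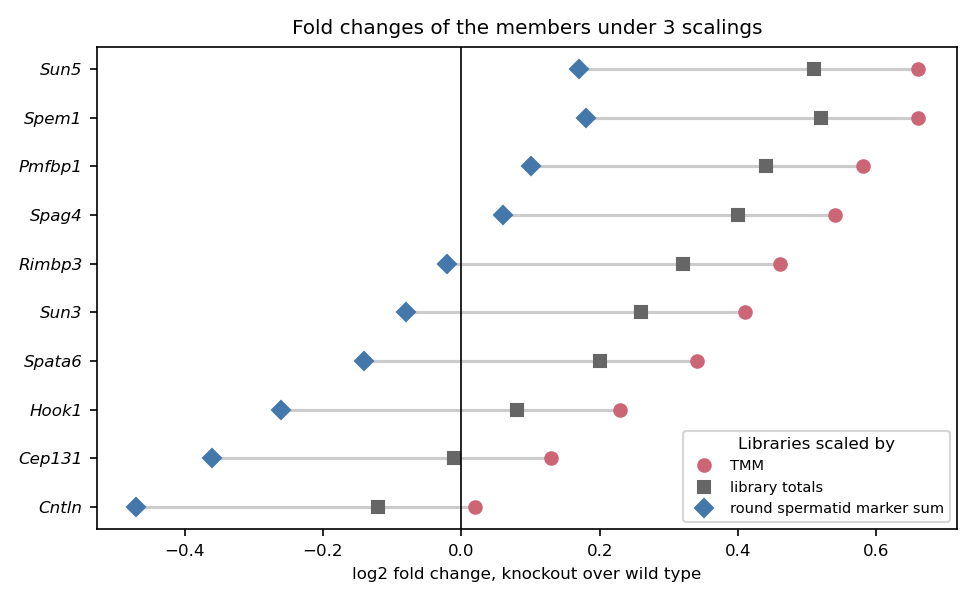
Log2 fold change (horizontal axis, knockout over wild type) of each gene with libraries scaled by TMM (red circles), by library totals (grey squares) and by the round spermatid marker sum (blue diamonds). A change of scaling shifts all genes nearly alike, so their order is kept by construction. Rimbp3, Sun3, Spata6, Hook1, Cep131 and Cntln lie below 0 with the marker scaling, and Cep131 and Cntln also with library totals.

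Most other genes of the manchette rose as well under TMM scaling. For this list and those that follow, 26.2% of all tested genes were called higher and 27.4% lower with TMM. The shares were 17.5% and 37.6% with library totals and 5.58% and 63.4% with the marker scaling. Differences of the lists from these shares were not tested. Of 32 further genes of the manchette and its transport, 27 rose and 1 fell, with a median log2 fold change of 0.29, against 16 and 4 with library totals and 0 and 21 with the marker scaling. Clip1, a microtubule plus-end protein, rose from 247 ± 9.46 to 369 ± 32.8 CPM, or by 0.58 in log2 (adjusted p = 1.26e-06). The kinesin gene Kif17 rose by 0.54 (adjusted p = 2.13e-06). The 1 gene that fell was Ift20, a subunit of the intraflagellar transport complex that carries cargo along the manchette (63.4 ± 3.89 to 52.5 ± 0.743 CPM, log2 fold change -0.27, adjusted p = 0.00142).

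Of 18 further genes listed for the coupling apparatus and the tail, 17 rose and none fell (median 0.39). With library totals 14 rose and 1 fell, and with the marker scaling 1 rose and 6 fell. The list is wider than the coupling apparatus and includes fibrous sheath genes such as Akap4. The list shares 3 genes (Akap4, Oaz3 and Odf1) with the elongating spermatid markers. Akap4, a fibrous sheath scaffold gene, rose by 0.70 (adjusted p = 2.99e-08), Oaz3, a spermatid antizyme gene, by 0.59 (adjusted p = 1.34e-07) and Cep112, a centrosomal gene, by 0.52 (adjusted p = 9.88e-07). Cntrob, which encodes the centrobin of the centrosome and manchette, did not pass (log2 fold change -0.04, adjusted p = 0.626).

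The LINC complex and lamina genes beyond the members went both ways. Of 17, 5 rose and 7 fell (median -0.20), beside 26.2% and 27.4% of all tested genes. The counts were 3 and 8 with library totals (17.5% and 37.6% of all) and 1 and 13 with the marker scaling (5.58% and 63.4%). The spermatid genes Dpy19l2 and Fam209, whose products anchor the acrosome to the nucleus, rose by 0.29 (adjusted p = 0.000344) and 0.51 (adjusted p = 8.13e-06), and Lmnb2, a B-type lamin gene, rose by 0.77 (SE 0.0925, adjusted p = 4.88e-06). Emd rose by 0.33 and Syne1, a KASH gene, by 0.29, the latter not without wild-type replicate 4 (0.22, adjusted p = 0.0649). Dpy19l2, Emd and Syne1 were below 0 with the marker scaling (-0.19, -0.16 and -0.20). The other B-type lamin gene, Lmnb1, fell from 23 ± 0.389 to 17.2 ± 1.12 CPM (log2 fold change -0.42, adjusted p = 0.000277). The KASH gene Syne2 fell by 0.30 (adjusted p = 0.00034).

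Of 13 genes of dynein and the HOOK partners, 5 rose and 3 fell (median 0.09), beside 26.2% and 27.4% of all tested genes. The counts were 2 and 4 with library totals (17.5% and 37.6% of all) and 0 and 11 with the marker scaling (5.58% and 63.4%). Those that rose were the dynactin subunit gene Dctn3 (0.52), Aktip, a HOOK partner (0.37), Pafah1b1 (0.24), the dynein heavy chain gene Dync1h1 (0.20) and Dctn2 (0.15). The Dctn2 call ended when knockout replicate 1, 2 or 4 was left out, or replicate 1, 2 or 3 of wild type, with log2 fold changes from 0.10 to 0.17. Besides Hook3, Nde1 (-0.55) and Dync1li1 (-0.32) fell. With the marker scaling all of the risers except Dctn3 were below 0 (Aktip at -0.11, Pafah1b1 at -0.24, Dync1h1 at -0.29 and Dctn2 at -0.33).

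Of 16 genes of centriolar satellites and the centrosome linker, the compartment of CEP131, 5 rose and 1 fell (median 0.08). Over all tested genes the shares were 26.2% and 27.4%. The counts were 1 and 5 with library totals (17.5% and 37.6% of all) and 0 and 15 with the marker scaling (5.58% and 63.4%). Cep63, a centriole duplication gene, rose from 545 ± 8.46 to 753 ± 30.7 CPM (log2 fold change 0.47, adjusted p = 8.90e-07), and Cetn1, a centrin gene of the testis, by 0.22. Cep72 (0.17), Cep152 (0.21) and Ssx2ip (0.12) rose as well. The Ssx2ip call ended without any 1 of the 8 libraries, and the Cep152 call when knockout replicate 1, 2 or 4 was left out, or replicate 1, 3 or 4 of wild type. Cep68, a linker gene, fell by 0.49 (adjusted p = 0.000516). Pcm1, the scaffold gene of the satellites, had a log2 fold change of -0.01 (adjusted p = 0.943). All 5 that rose were below 0 with the marker scaling (Cep63 at -0.02, Cetn1 at -0.26, Cep152 at -0.28, Cep72 at -0.31 and Ssx2ip at -0.37).

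**Figure D4:**
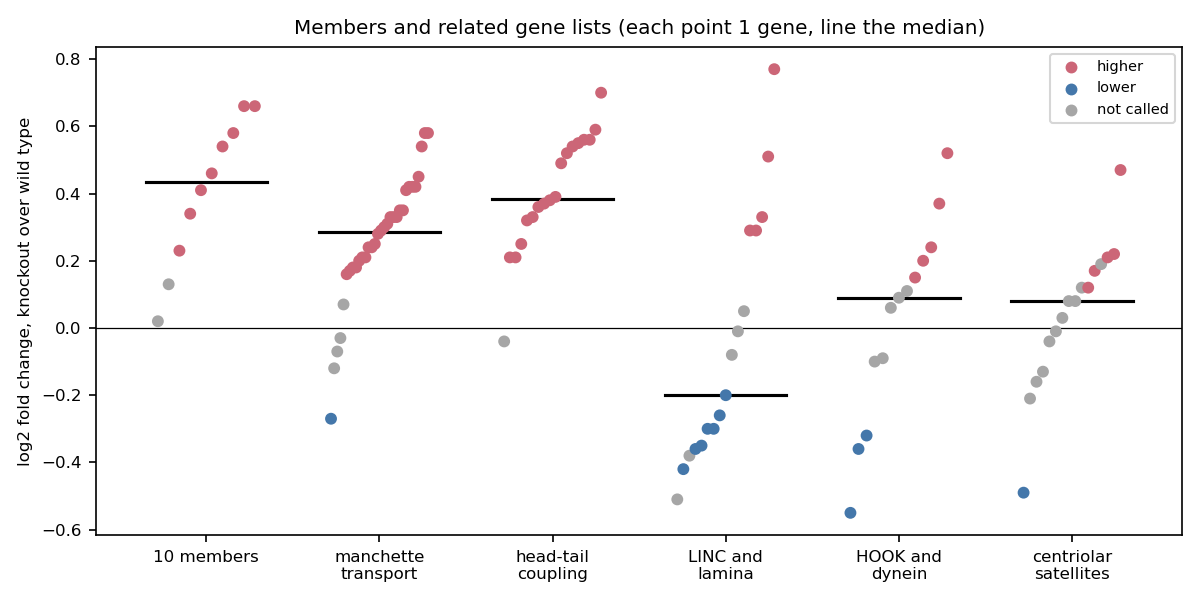
Log2 fold change (vertical axis, knockout over wild type, TMM scaling) of every tested gene in the members and 5 related lists, called higher in red, called lower in blue and not called in grey, with a black line at each median. The medians are 0.43, 0.29, 0.39, -0.20, 0.09 and 0.08 from left to right, and with the marker scaling they are -0.05, -0.20, -0.10, -0.69, -0.40 and -0.41.

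All 10 genes are autosomal, with 3 each on chromosomes 4 (Spata6, Hook1 and Cntln) and 11 (Sun3, Spem1 and Cep131), 2 on chromosome 2 (Sun5 and Spag4) and 1 each on chromosomes 8 (Pmfbp1) and 16 (Rimbp3). Their exons span from 1041 bases for Spem1 to 8318 bases for Hook1. The share of their 31-base words found in other genes was 7.41% for Sun3, 3.42% for Hook1, 1.41% for Spag4, 0.706% for Spata6 and 0 for the other 6. Hook1 overlaps 9530080O11Rik on the opposite strand over 317 bases, or 3.81% of its exons, and that transcript was at 5.41 ± 0.688 CPM in wild type.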

How the data were processed

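Gene expression in adult mouse testis was measured by RNA sequencing, with 4 knockout and 4 wild-type libraries grouped by their titles. TRIzol-extracted, DNase-treated total RNA went into TruSeq libraries, per the labels' protocols. The authors deposited raw counts per Ensembl gene, without normalization. The build was mm39, and the tools named are STAR, featureCounts, Trimmomatic, FastQC and DESeq2, per the submitters' processing notes. The sources used here give no versions, annotation, strand setting or handling of reads that map to several places.

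Symbols came from GENCODE vM21 (52073 of 56748 genes) and RefSeq synonyms. Fhip1a, Fhip1b, Fhip2a, Fhip2b and Spem3 were not matched and are not analysed here. GENCODE vM21 and the RefSeq windows are on GRCm38, so coordinates and lengths are of that build. No RefSeq window was found for Pmfbp1 or Rimbp3, so these genes were not searched for motifs. The windows of Sun3, Sun5, Hook1 and Cntln were searched, held no match and are not shown.

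The filterByExpr rule (at least 10 counts, total of at least 15) left 21952 genes. The quasi-likelihood test of edgeR 4.0.16 (R 4.3.3) was run with TMM scaling and genotype as the only term. Calls have a Benjamini-Hochberg adjusted p under 0.05. SE is the log2 fold change over the square root of F. The fit was tested on simulated data. No pair of libraries of a group agreed within sampling noise (chi-square per degree of freedom from 4.564 to 9.39). All were counted as replicates, although this spread does not show that they come from separate animals. The alternatives were RLE factors, library totals, DESeq2 1.42.0, no filter, a replicate block, scaling by round spermatid markers and leaving out each library; 2 forms of the marker scaling were added after seeing the data. The members, lists and motifs were chosen with earlier results of these data known. Named genes are all members, the 3 genes of smallest p in each list, those of a direction that 5 or fewer of a list took, and the 3 nearest to the member of smallest p (1 gene so chosen is not reported here); Sun1, Hook2, Rimbp2, Tspoap1, Pcm1, Cntrob and Syne2 were named beyond this after their values were seen.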

Additional observations from a re-analysis of the deposited data

Results flagged for a closer look

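In wild type, the summed round spermatid markers of replicate 2 were 3349 CPM, below the 3720 to 3768 CPM of the other 3 libraries. Its gap to the nearest library was 0.884 of the group's range, above the critical value of Dixon's test for 4 samples. It was the only one of 36 groups of 4 values so marked, and chance marks about 1 in 20. The values of the members without this library are given with the marker scaling.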

How the results depend on the processing

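With RLE factors, DESeq2, no filter on low counts and the replicate block, 8 members were higher and none lower. Of all 21952 tested genes, 5864 were higher and 5869 lower with RLE factors, and 5587 and 5578 with DESeq2. Without the filter they were 5842 and 6322 of 41909 genes. The replicate numbers were not taken as pairs, since same-numbered libraries had correlations of deviations from -0.000649 to 0.0732, although 3 of 4 knockout libraries correlated best with their own number; with the replicate block the median of the members was 0.44 and all calls were 5915 higher and 6203 lower, and no call on a member changed. Leaving out 1 library at a time gave 8 to 9 members higher and 0 lower, a median from 0.40 to 0.46, Cntln from -0.02 to 0.08 (-0.02 without knockout replicate 2 and without wild-type replicate 1) and Cep131 from 0.06 to 0.23. Over all tested genes (22103 to 22450 in these fits), 5017 to 5549 were then higher and 5367 to 5975 lower. Library totals gave 3848 genes higher and 8255 lower (31.8% of calls higher, beside 48.9% with TMM), a median of the members of 0.29, Hook1 at 0.08, Cntln at -0.12, Cep131 at -0.01 and Ssx2ip at -0.03. Scaling by the round spermatid markers gave 1224 genes higher and 13926 lower (8.08% of calls higher), 2 members higher and 4 lower, and a median of -0.05. The members were then at -0.14 (Spata6), -0.08 (Sun3), 0.06 (Spag4), 0.10 (Pmfbp1), -0.26 (Hook1), -0.02 (Rimbp3), -0.47 (Cntln) and -0.36 (Cep131). Other genes that turned below 0 included Syne1 (-0.20), Emd (-0.16), Dpy19l2 (-0.19), Aktip (-0.11), Dync1h1 (-0.29), Dctn2 (-0.33), Pafah1b1 (-0.24), Cep72 (-0.31), Ssx2ip (-0.37), Cep63 (-0.02), Cep152 (-0.28), Cetn1 (-0.26), Syce1 (-0.22), Syce2 (-0.24), Gfra1 (-0.02) and Actg2 (-0.01). The same scaling in 7 libraries gave 1166 higher and 13125 lower, 2 and 4 members, a median of -0.04, and Spata6 -0.12, Sun3 -0.07, Spag4 0.04, Pmfbp1 0.11, Hook1 -0.21, Rimbp3 -0.02, Cntln -0.36, Cep131 -0.38, Syne1 -0.15, Emd -0.10, Dpy19l2 -0.15, Aktip -0.08, Dync1h1 -0.26, Dctn2 -0.33, Pafah1b1 -0.21, Cep72 -0.27, Ssx2ip -0.33, Cep152 -0.21, Cetn1 -0.23, Syce1 -0.17, Syce2 -0.24 and Actg2 -0.03. Without the 4 genes known to rise it gave 1650 higher and 12214 lower, 3 and 3 members, a median of 0.05, and Spata6 -0.05, Sun3 0.02, Spag4 0.15, Hook1 -0.16, Rimbp3 0.08, Cntln -0.37, Cep131 -0.26, Syne1 -0.10, Emd -0.06, Dpy19l2 -0.10, Aktip -0.02, Dync1h1 -0.19, Dctn2 -0.24, Pafah1b1 -0.15, Cep72 -0.22, Ssx2ip -0.27, Cep152 -0.18, Cetn1 -0.17, Syce1 -0.12 and Syce2 -0.15. The cause of these changes was not tested. The least deeply counted member, Cntln, had at least 936 counts per library.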
